A study of Mus musculus with 16 samples.

Results

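Chemically induced neural stem-like cells (ciNSLCs), lines grown from mouse embryonic fibroblasts after treatment with a mixture of small molecules, were compared with 2 cultures of cortical neural stem cells. The comparison used 5 of the 16 RNA sequencing libraries of the series, chosen by their labels alone: 3 ciNSLC libraries and 2 control libraries. The ciNSLCs came from tdMEFs of a 129xC57BL6 background, embryonic fibroblasts in which Fsp1-Cre recombines a ROSA26 tdTomato reporter, so that the mark is limited to cells in which the Fsp1 promoter was active. The treatment, M9, was given to the fibroblasts at 5% O2 and joined a GSK3 inhibitor (CHIR99021), a BMP receptor inhibitor (LDN193189), a TGF-beta receptor inhibitor (A83-01), a Hedgehog agonist (Hh-Ag1.5), retinoic acid, the autophagy enhancer SMER28, the DNA methyltransferase inhibitor RG108, the LSD1 inhibitor Parnate and bFGF. The first control, SCR029, is a commercial C57BL6 line of cortical neural stem cells from embryonic day 15 to 18, and the second, called priNPC here, is a primary culture of cortical neural stem cells from E13.5 embryos of a 129xC57BL6 background. Each control is 1 library. The labels give no oxygen level or medium for the ciNSLC and control cultures at harvest. The descriptions name ciNSLC replicates 1, 2 and 3 E13_1, ciN_1_P4 and ciN_2_P2 without saying what these names mean. They do not say whether the ciNSLC libraries come from separate cultures, so the spread between these libraries could be technical. The p-values rest on the spread within groups over all 16 libraries, most of which are untreated or treated fibroblasts. By the sample descriptions, ciNSLC replicate 1 and SCR029 are in batch 1, and ciNSLC replicates 2 and 3 and priNPC in batch 2, so that the source of a control and its batch cannot be told apart.

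Neural stem cells share a set of factors, among them Sox2, Pax6 and Olig genes, but also keep the position along the body axis at which they arose. The forebrain, of which the cortex is a part, expresses factors such as Otx2, not all of them in every region or at every stage, and no Hox genes. Cells of the hindbrain and spinal cord express Hox genes, which lie in 4 clusters whose order along the chromosome follows the order of their expression along the body. Retinoic acid, Wnt and FGF signals shift neural cells towards posterior positions, and fibroblasts keep a Hox pattern of their own that records the body site they came from.

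The 5 libraries held 30828882 to 55471129 counts each. The 2 mitochondrial ribosomal RNA genes took 44.3% to 53% of them in the ciNSLCs, 47.4% in SCR029 and 32% in priNPC. Values below are CPM, counts scaled to a common library size with TMM factors, and a gene without a read could still have had a level of up to 0.0697 to 0.133 CPM, depending on the library (3 counts, counting error alone). ciNSLC replicate 3 stood apart from the other ciNSLC libraries. Of 8036 genes at 10 CPM or more in either library, 31 (0.386%) differed more than 4-fold between ciNSLC replicates 1 and 2, against 203 (2.48%) and 194 (2.4%) between replicate 3 and those libraries. Pairs of a ciNSLC and a control library differed at 4.18% to 6.21% of such genes, and SCR029 and priNPC at 5.47%. Kdm5d, a gene of the Y chromosome, was at 0.86, 0.979 and 29.5 CPM in ciNSLC replicates 1, 2 and 3, at 0.568 CPM in SCR029 and at 63.4 CPM in priNPC. Xist, transcribed from the inactive X chromosome, was at 498, 721 and 129 CPM, and at 596 and 70.6 CPM in the controls. The sex of the source cells is not labelled, and its part in the results was not tested. In bulk RNA, fewer cells of a type and less RNA per cell cannot be told apart. No pair of libraries agreed within sampling noise.

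With both controls as one group, 155 genes were called higher in the ciNSLCs (0.879% of 17636 tested) and 115 lower (0.652%) with edgeR (quasi-likelihood F-test, Benjamini-Hochberg adjusted p under 0.05), 1.53% in either direction. The 3 ciNSLC libraries lay apart from both control libraries for each of these 270 genes, which was also true of 27.2% of all genes. Their sign within each batch follows from this separation. With batch as a term 648 genes were called, the 270 among them. The median log2 change of all genes was -0.008, and 13.7% of all genes had an unadjusted p under 0.05. The number of calls rested on few libraries: it was 109 without ciNSLC replicate 1, 113 without replicate 2 and 463 without priNPC, 174 without replicate 2 of D12 and 175 without replicate 3 of D4 (the fibroblasts on treatment days 12 and 4, which entered the fit to estimate the spread).

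Neural stem cell genes were expressed in both the ciNSLCs and the controls. Of 23 members of the neural stem and radial glia list tested, 0 were called by edgeR (1.53% of all genes), 4 had an unadjusted p under 0.05 (1 higher and 3 lower, against 13.7% of all genes), and DESeq2 and limma voom each called 2. The median log2 change of the list was -0.19. Sox2, a core factor of neural stem cells, was at 56.6, 56.6 and 37.4 CPM in the ciNSLCs, at 44.4 CPM in SCR029 and at 97.6 CPM in priNPC, with a mean of 0.221 CPM in the 2 libraries of untreated fibroblasts (D0). Fabp7, a fatty acid binding protein of radial glia and the list's most abundant member, was at 3520, 2710 and 2160 CPM in the ciNSLCs, 2580 CPM in SCR029 and 1750 CPM in priNPC. For both genes the groups overlapped, and the fibroblast mean was far below (1.52 CPM for Fabp7). Olig2, a factor of ventral and glial progenitors, was at 231, 288 and 362 CPM against 293 and 305 CPM in SCR029 and priNPC. Pax6 was at 10.1, 14.4 and 20.3 CPM against 14.4 and 21 CPM. Just outside the threshold was Nr2e1 (Tlx), an orphan nuclear receptor of forebrain neural stem cells, which was named after its values were seen: it was at 1.35, 1.56 and 0 CPM in the ciNSLCs and at 19.65 and 26.7 CPM in the controls (adjusted p = 0.052).

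**Figure D1:**
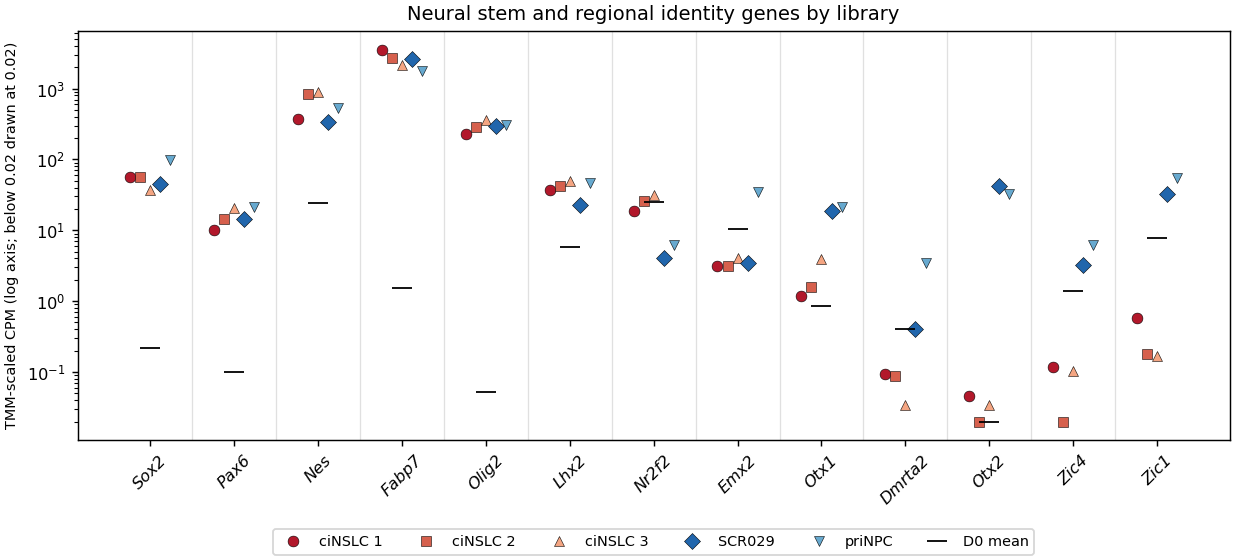
TMM-scaled CPM on a log axis for neural stem and regional identity genes, 1 point per library (red shades, the 3 ciNSLC libraries; blue shades, SCR029 and priNPC) and a bar at the mean of the 2 D0 fibroblast libraries. From Sox2 to Lhx2 the colours mix, while for Otx1, Dmrta2, Otx2, Zic4 and Zic1 every ciNSLC point lies below both controls.

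Several forebrain factors were lower in the ciNSLCs. Among called genes with a control mean of at least 10 CPM, Otx2 had the largest fall. Of 20 members of the telencephalon and forebrain list tested, 4 were called lower (20% against 0.652% of all genes) and 1 higher (5% against 0.879%), and the median log2 change was -1.44. Otx2, a homeobox factor needed for forebrain and midbrain (mm9 chr14:49277354-49287319, minus strand), had 2, 0 and 1 reads in the 3 ciNSLC libraries (at most 0.0465 CPM), whereas SCR029 had 42 CPM and priNPC 32.2 CPM. The controls were higher by a ratio of 1160 (95% counting interval 398 to 5640, adjusted p = 6.5e-05). Otx2 was thus close to absent in all ciNSLC libraries and present in both controls, and it was called whichever of the 16 libraries was left out. In the fibroblasts it had no read at D0.

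Other forebrain genes differed less. Otx1, the paralogue of Otx2, was at 1.19, 1.56 and 3.99 CPM in the ciNSLCs and at 18.5 and 21.5 CPM in SCR029 and priNPC (log2 change -3.15, SE 0.67, adjusted p = 0.0332), and Dmrta2, a factor of the dorsal telencephalon, at 0.0338 to 0.0929 CPM against 0.398 and 3.48 CPM (log2 change -4.68, SE 0.81, adjusted p = 0.0109). Nr2f2 (COUP-TFII), an orphan receptor of caudal forebrain and of mesenchyme, went the other way, at 18.9, 25.9 and 31.3 CPM against 4.03 and 6.13 CPM (log2 change 2.32, SE 0.45, adjusted p = 0.0213). The groups did not overlap for any of these genes. The call of Otx1 was lost without ciNSLC replicate 1 or 2, either control, or D12 replicate 2 or 3 (adjusted p up to 0.132). That of Dmrta2 was lost without ciNSLC replicate 1 or priNPC (up to 0.105), and that of Nr2f2 without ciNSLC replicate 2 or SCR029 (up to 0.114). Lhx2, a LIM factor of forebrain and retina, did not follow them and was at 37, 42 and 49.4 CPM against 23 and 45.8 CPM (adjusted p = 0.838). Emx2, a factor of the dorsal cortex, split the controls: it was at 3.09, 3.16 and 4.06 CPM in the ciNSLCs, at 3.46 CPM in SCR029 and at 34.8 CPM in priNPC.

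Zic1 and Zic4, of the dorsal neural tube list, were called lower as well. Zic1, a zinc finger factor of dorsal neural tissue (chr9:91252896-91260648, minus strand), was at 0.581, 0.178 and 0.169 CPM in the ciNSLCs and at 32.2 and 55.2 CPM in SCR029 and priNPC (log2 change -7.04, SE 0.61, adjusted p = 6.5e-05). Its neighbour Zic4 was at 0.116, 0 and 0.102 CPM against 3.21 and 6.11 CPM (log2 change -5.81, SE 0.65, adjusted p = 0.000494). Both were called whichever library was left out. The 2 genes overlap on opposite strands, and no strand-specific counting is stated, so their reads cannot be fully separated. Of 11 members of that list tested, 2 were called lower (18.2% against 0.652% of all genes) and 0 higher, though 4 had an unadjusted p under 0.05 in the higher direction. Without ciNSLC replicate 3 the number called was 5.

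Hox genes rose, and among the 42 lists described here the HoxB cluster had the largest share of members called higher. In the HoxB cluster 7 of the 8 genes tested were called higher (87.5%, against 0.879% of all genes), in HoxC 4 of 8, in HoxD 2 of 9 and in HoxA 1 of 11, and no Hox gene was called lower. The medians of the fitted log2 changes were 8.82, 7.2, 4.73 and 2.05 for HoxB, HoxC, HoxD and HoxA, and 6.06, 3.57, 2.85 and 2.05 with genes that had no read in either control at their lower bound. The summed HoxB level was 28.2, 27.5 and 31.5 CPM in the ciNSLCs, 0.17 CPM in SCR029, 0.0954 CPM in priNPC and 23.7 and 29.1 CPM in the D0 fibroblasts. The ciNSLC lines thus carried about as much HoxB transcript as the fibroblasts did, and the controls next to none.

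Among single HoxB genes, Hoxb5 was at 8.92, 9.83 and 6.4 CPM and Hoxb4 at 8.06, 8.1 and 8.02 CPM in ciNSLC replicates 1, 2 and 3, and neither had a read in SCR029 or priNPC. Against a floor of 3 counts over both controls, Hoxb5 was at least 215-fold higher (adjusted p = 5.21e-06) and Hoxb4 at least 207-fold (adjusted p = 5.34e-05). Per kilobase of exon, Hoxb5 was at 3.17, 3.5 and 2.28 CPM and Hoxb4 at 1.94, 1.95 and 1.93 CPM, the highest levels in the cluster in replicates 1 and 2. Hoxb3 and Hoxb6, also without a read in the controls, were at least 61.9-fold and 58.7-fold higher (adjusted p = 0.000126 and 0.00185). Hoxb7, with 4.18 to 5.89 CPM in the ciNSLCs and 1 read in the controls together, was higher by a ratio of 367 (65.5 to 14500, adjusted p = 8.1e-05). The ratios were 49.5 (13.4 to 413) for Hoxb2 and 86.8 (15.2 to 3460) for Hoxb8, which had 2 reads and 1 read in the controls (adjusted p = 0.00855 for each). All 7 genes were called whichever library was left out. Hoxb2, Hoxb3, Hoxb5 and Hoxb6 overlap annotated transcripts on the opposite strand, and Hoxb7 and Hoxb8 overlap each other on the same strand. Hoxb9, the most posterior member tested, was at 0.186, 0.0445 and 1.96 CPM and was not called (adjusted p = 0.0596).

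**Figure D2:**
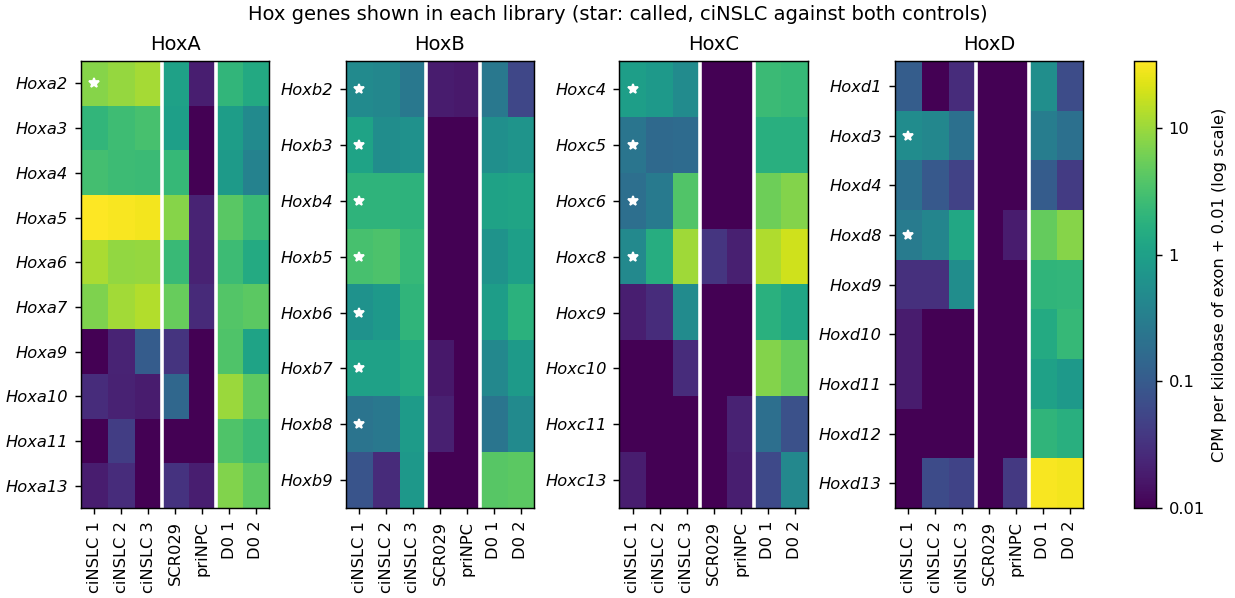
Hox genes that passed the expression filter and are reported here, as CPM per kilobase of exon plus 0.01 on a logarithmic colour scale, in the 3 ciNSLC, 2 control and 2 D0 libraries; a star marks genes called between ciNSLC and both controls. Anterior and middle genes of all clusters are lit in the ciNSLCs, the posterior genes at the bottom of each panel are lit mainly in D0, and the controls are dark except for HoxA genes in SCR029.

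In HoxC and HoxD the called anterior genes were shared by all ciNSLC libraries, and the called middle genes were highest in replicate 3. Hoxc4 was at 2.44, 1.96 and 1.25 CPM and Hoxc5 at 0.65, 0.445 and 0.474 CPM, with no read in either control (at least 50.3-fold and 14.1-fold higher, adjusted p = 0.00104 and 0.00135). Hoxd3 was at 2.97, 2.4 and 1.12 CPM, again with no read in the controls (at least 58.1-fold, adjusted p = 0.00254). These 3 genes were called whichever library was left out. Hoxc6 was at 0.465, 0.667 and 9.31 CPM and Hoxc8 at 1.04, 3.56 and 24.1 CPM, so that replicate 3 was several-fold above the other ciNSLC libraries. Hoxc6 had no read in the controls (at least 83.8-fold) and Hoxc8 had 3 (ratio 226, 77.1 to 1100). Hoxd8, with 1 read in the controls (ratio 131, 23.3 to 5220), was at 0.79, 1.07 and 3.52 CPM. The calls of Hoxc6, Hoxc8 and Hoxd8 (adjusted p = 0.0292, 0.0254 and 0.0178) were lost when either control was left out (up to 0.107). In the D0 fibroblasts the mean of Hoxc8 was 36.4 CPM.

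The controls differed from each other in HoxA. Hoxa5, the HoxA gene with the highest level per kilobase in the ciNSLCs, was at 63.5, 59.5 and 55.5 CPM there, at 14.5 CPM in SCR029 and at 0.0238 CPM (1 read) in priNPC. The summed HoxA level was 147, 155 and 169 CPM in the ciNSLCs, 49.4 CPM in SCR029 and 0.191 CPM in priNPC, so that SCR029, labelled cortical, carried HoxA transcripts without those of HoxB, HoxC or HoxD. Against priNPC alone 7 of 11 HoxA genes were called higher, Hoxa2 and Hoxa5 among them, against 0.709% of all genes higher and 1.99% in either direction. Against SCR029 alone 2 were called higher, Hoxa2 and Hoxa5, and 1 lower, Hoxa10, against 2.13% and 0.573% of all genes (2.7% in either direction). Hoxa2, at 19, 22.4 and 27.6 CPM against 2.53 and 0.0238 CPM, was the only HoxA gene called against both controls together (adjusted p = 0.0488), and that call was lost when any 1 library other than a control was left out (adjusted p up to 0.112). Hoxd13, the most posterior HoxD gene, was at 0, 0.134 and 0.102 CPM in the ciNSLCs, 0 and 0.0716 CPM in the controls and 75.4 CPM on average at D0.

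Of the 39 Hox genes listed, 22 had a promoter in the RefSeq table (GRCm38.p6, 250 bases before to 50 after the start). The letters AGGTCA, which nuclear receptors for retinoic acid bind in pairs, was searched on both strands. It was present in 7 of their 24 promoters (29.2%), against 16.3% of all 32851 promoters. The promoters of Hoxb4 (chr11:96318017-96318316, plus strand) and Hoxc4 (chr15:103034145-103034444, plus strand) are shown because both genes were called whichever library was left out and both hold 1 match. The match is in capitals and reads TGACCT on the plus strand printed here, which is AGGTCA on the minus strand.
Hoxb4: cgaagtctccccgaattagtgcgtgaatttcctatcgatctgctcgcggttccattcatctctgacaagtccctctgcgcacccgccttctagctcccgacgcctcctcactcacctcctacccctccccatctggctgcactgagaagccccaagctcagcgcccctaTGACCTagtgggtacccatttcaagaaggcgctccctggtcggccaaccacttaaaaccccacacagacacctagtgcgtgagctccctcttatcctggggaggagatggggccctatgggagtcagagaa
Hoxc4: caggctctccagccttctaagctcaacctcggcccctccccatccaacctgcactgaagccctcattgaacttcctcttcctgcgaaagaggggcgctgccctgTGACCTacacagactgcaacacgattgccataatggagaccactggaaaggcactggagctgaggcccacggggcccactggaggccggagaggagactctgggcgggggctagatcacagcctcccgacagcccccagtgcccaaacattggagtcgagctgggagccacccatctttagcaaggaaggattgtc
Of the other called Hox genes, Hoxd3 and Hoxd8 also held a match, whereas Hoxa2 and Hoxb8 had a promoter without it. The remaining matches were in Hoxa5, Hoxd4 and Hoxd10, which were not called against both controls together. A match describes the letters in this window and not a bound site. The letters ACGTG, searched for the hypoxia and glycolysis list below, were also in 7 of the 24 Hox promoters (29.2%, against 19.6% of all promoters).

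Genes of hypoxia and glycolysis were lower in the ciNSLCs as a group. These genes are switched on by the HIF transcription factors, which accumulate when oxygen is low, and include enzymes of glycolysis, the angiogenic factor Vegfa and enzymes that feed back on HIF itself. Of 15 members tested 8 were called lower (53.3% against 0.652% of all genes) and 0 higher. All 15 had a negative log2 change, 13 had an unadjusted p under 0.05 (against 13.7% of all genes), and the median was -2.14. The summed level was 1280, 1370 and 1340 CPM in the ciNSLCs against 4060 CPM in SCR029 and 4900 CPM in priNPC. It was 2970, 4960 and 5520 CPM on treatment day 4 and 1410, 1240 and 1150 CPM on day 12, both at 5% O2, and 2800 and 1650 CPM in D0 fibroblasts at 20% O2. The ciNSLC level was therefore close to that of day 12 and under every control.

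Vegfa was at 12.6, 17.1 and 14.2 CPM in ciNSLC replicates 1, 2 and 3, at 117 CPM in SCR029 and at 228 CPM in priNPC (log2 change -3.56, SE 0.59, adjusted p = 0.00865). Egln3, a prolyl hydroxylase that marks HIF for degradation, was at 9.06, 13.8 and 13.1 CPM against 75.8 and 71.1 CPM (log2 change -2.62, SE 0.39, adjusted p = 0.00461). Ankrd37, a HIF target of low abundance, was at 0.209, 0.356 and 0.203 CPM against 7.19 and 3.12 CPM (log2 change -4.34, SE 0.59, adjusted p = 0.0024). In each case the ciNSLC libraries formed a narrow range several-fold under both controls. Pdk1, a pyruvate dehydrogenase kinase, was at 21.6, 18.7 and 5.96 CPM against 146 and 146 CPM (adjusted p = 0.0193), and Bnip3, a receptor for mitophagy, at 24.5, 16.8 and 10.7 CPM against 174 and 142 CPM (adjusted p = 0.0253). Replicate 3 had the lowest value of both. Adm (adrenomedullin), Hk2 (hexokinase 2) and Aldoa (aldolase A) had log2 changes of -2.18, -2.14 and -1.52 (SE 0.44, 0.44 and 0.3, adjusted p = 0.0264, 0.0285 and 0.0253).

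**Figure D3:**
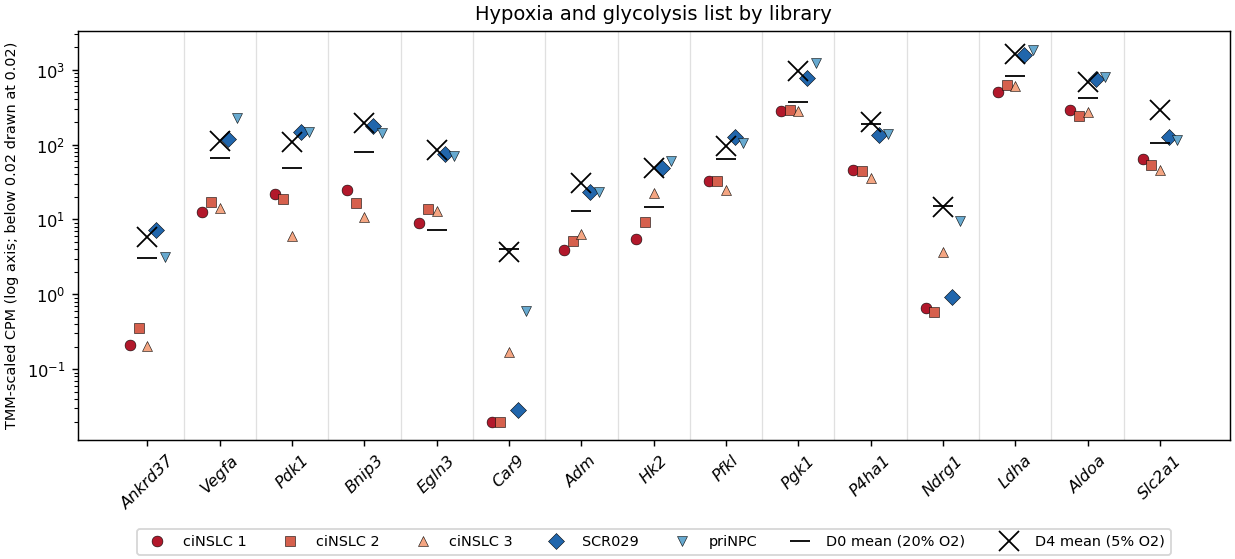
TMM-scaled CPM on a log axis for the 15 genes of the hypoxia and glycolysis list, ordered by log2 change, 1 point per library, with the means of D0 (bar, 20% O2) and D4 (cross, 5% O2). For 13 of the 15 genes all ciNSLC points lie below both control points; Car9 and Ndrg1 are the exceptions. Over all genes 27.2% had separate groups in either direction.

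The number of members called depended on the libraries in the fit. It was 2 without ciNSLC replicate 1, 3 without replicate 2 and 5 without SCR029, but 12 without D4 replicate 1 and 11 without D8 replicate 1, and it was 12 with DESeq2 or with batch as a term, while Egln3 and Ankrd37 were called whichever library was left out. The other 6 each lost their call without ciNSLC replicate 1, and all of them but Vegfa without replicate 2 (adjusted p up to 0.106). The median stayed between -2.69 and -1.84. The oxygen level of the ciNSLC and control cultures is not labelled, and its part in this difference was not tested. Transcripts encoded by the mitochondrial genome, given beside it, summed to 35800, 57800 and 29600 CPM in the ciNSLCs against 26300 and 16000 CPM in SCR029 and priNPC, with 0 of 13 called by edgeR (3 at an unadjusted p under 0.05, all higher; 1 called by DESeq2 and 0 by limma voom).

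Of the 15 genes, 14 had a promoter in the RefSeq table. The letters ACGTG, the core to which HIF binds and a motif added after the values were seen, were searched on both strands and found in at least 1 promoter of 11 genes. They were in 12 of the 19 promoters (63.2%), against 19.6% of all promoters and 29% of the 8701 promoters with at least 20 CpG dinucleotides, the median of these 19. The promoters of the 4 genes below are shown because they are among the called members and hold the letters, given in capitals in either orientation; in Bnip3 a match on each strand overlaps the other. They lie at chr8:45999801-46000100 for Ankrd37, chr12:54203825-54204124 for Egln3, chr7:138909457-138909756 for Bnip3 and chr17:46025114-46025413 for Vegfa, all on the minus strand of GRCm38.p6, the last being 1 of 2 Vegfa starts in the table. The window of the other Vegfa start (chr17:46032328-46032627) lies upstream on that strand and holds no match. The Vegfa match shown is thus downstream of that start, and Vegfa counts among the 11 genes by this window alone.
Ankrd37: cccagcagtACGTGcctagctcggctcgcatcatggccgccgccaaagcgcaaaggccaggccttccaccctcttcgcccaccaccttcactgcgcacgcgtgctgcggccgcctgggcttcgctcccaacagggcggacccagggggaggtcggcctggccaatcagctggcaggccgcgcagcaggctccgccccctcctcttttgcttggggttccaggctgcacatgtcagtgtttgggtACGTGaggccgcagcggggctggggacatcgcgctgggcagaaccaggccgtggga
Egln3: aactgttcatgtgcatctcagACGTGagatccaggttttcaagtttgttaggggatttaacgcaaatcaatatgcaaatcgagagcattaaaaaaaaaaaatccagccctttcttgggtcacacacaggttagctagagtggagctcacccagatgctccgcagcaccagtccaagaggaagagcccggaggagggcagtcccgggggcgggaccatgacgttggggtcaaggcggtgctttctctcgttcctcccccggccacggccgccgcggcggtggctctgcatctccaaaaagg
Bnip3: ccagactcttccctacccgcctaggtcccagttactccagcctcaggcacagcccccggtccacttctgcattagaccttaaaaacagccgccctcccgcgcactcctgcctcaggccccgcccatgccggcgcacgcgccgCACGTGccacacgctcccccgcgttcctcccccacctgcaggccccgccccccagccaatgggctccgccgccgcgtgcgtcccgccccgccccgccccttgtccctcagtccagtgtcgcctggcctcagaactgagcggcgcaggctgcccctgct
Vegfa: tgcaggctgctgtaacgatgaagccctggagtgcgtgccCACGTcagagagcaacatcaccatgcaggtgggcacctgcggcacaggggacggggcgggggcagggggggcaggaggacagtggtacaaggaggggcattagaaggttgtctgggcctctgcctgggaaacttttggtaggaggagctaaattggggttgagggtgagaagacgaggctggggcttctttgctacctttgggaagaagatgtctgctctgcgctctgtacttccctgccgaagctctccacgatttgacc
Called members with a promoter but no match were Adm and Pdk1.

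No marker of fibroblasts or of myeloid, epithelial and endothelial cells was called by edgeR against both controls together. The fibroblast matrix and surface list summed to 442, 650 and 545 CPM in the ciNSLCs, 232 CPM in SCR029 and 1110 CPM in priNPC, against 39800 and 49600 CPM in the D0 fibroblasts. Col1a1, the main fibrillar collagen, was at 2.65, 9.35 and 7.35 CPM in the ciNSLCs and at 3.01 and 3.82 CPM in the controls, with a D0 mean of 8890 CPM. Of the 24 members 0 were called by edgeR and by limma voom, 1 by DESeq2, and 6 had an unadjusted p under 0.05, 5 of them higher (against 13.7% of all genes in either direction). The median log2 change of the list was 0.82 (1.52 against SCR029 and 0.94 against priNPC), with 19 of 24 members positive. The ciNSLC libraries thus lay between the controls in summed level and far under the fibroblasts. Myeloid markers summed to 1.69 to 2.63 CPM over the 5 libraries, with C1qa and C1qb at 0 reads in all of them, epithelial markers to 2.03 to 4.06 CPM with Cldn6 at 0 reads, and endothelial markers to 3.15 to 9.66 CPM with Tie1 and Cldn5 at 0 reads. Of 14, 12 and 9 members tested in these 3 lists, 0 were called by edgeR, DESeq2 and limma voom, and 0, 1 and 0 had an unadjusted p under 0.05. Of 10 choroid plexus, ependymal and mural genes 0 were called by edgeR, DESeq2 and limma voom, 3 had an unadjusted p under 0.05 (2 higher), and the median was 1.18 (3.3 against SCR029 and 2.07 against priNPC). The part of these cell types in the results was not tested.

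**Figure D4:**
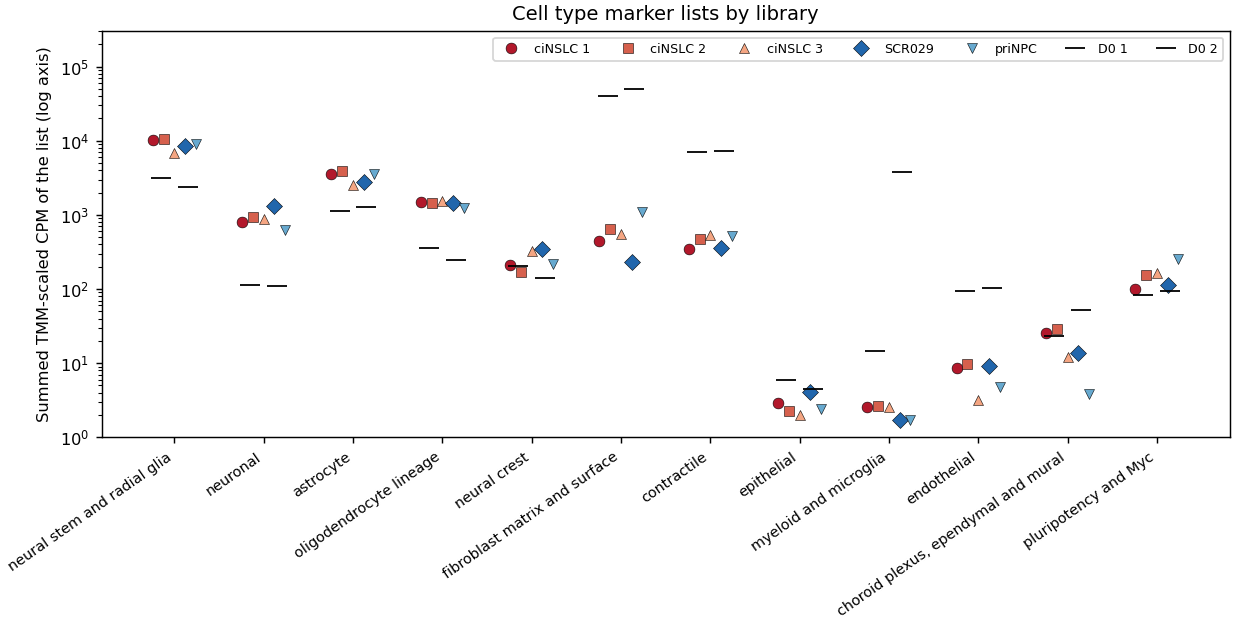
Summed TMM-scaled CPM of 12 cell type marker lists on a log axis, 1 point per library for the ciNSLCs (red shades) and controls (blue shades) and a bar for each D0 fibroblast library. The ciNSLC and control points share a range in the neural lists, and the fibroblast and contractile lists lie well under the D0 bars in all 5 libraries.

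Differentiation markers were not called by edgeR against both controls together either, but varied between ciNSLC libraries. Of 15 astrocyte, 17 oligodendrocyte lineage and 21 neuronal genes tested 0 were called by edgeR. DESeq2 called 3, 1 and 2 of them and limma voom 1, 0 and 0. In edgeR 3, 6 and 8 had an unadjusted p under 0.05 (against 13.7% of all genes). All 3 astrocyte genes were higher, whereas 5 of the 6 oligodendrocyte lineage genes and 7 of the 8 neuronal genes were lower. The median log2 changes of the lists were 0.88, -0.33 and -0.03. Against SCR029 they were 1.25, 0.76 and 0.14, and against priNPC 0.66, -0.65 and -0.62. Gfap, an intermediate filament of astrocytes, was at 16.4, 14.8 and 0.0677 CPM in ciNSLC replicates 1, 2 and 3 and at 0.199 and 0.143 CPM in the controls (adjusted p = 0.15). Replicates 1 and 2 were far above both controls and replicate 3 below them. Replicate 3 also stood apart in 2 genes chosen after their values were seen. Nkx6-1, a factor of the ventral neural tube, was at 16.8, 24.8 and 0.0338 CPM against 0.0284 and 0.0477 CPM in the controls, and Pax7, a factor of the dorsal neural tube, went the opposite way, at 0.395, 0.178 and 41 CPM against 0.0852 and 0 CPM. The dorsal neural tube list summed to 3.48, 4.58 and 69.9 CPM in the ciNSLCs. Of 20 proliferation genes 0 were called by edgeR, by DESeq2 and by limma voom and 0 had an unadjusted p under 0.05, and Mki67, a marker of cycling cells, was at 346, 453 and 478 CPM against 518 and 550 CPM.

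Of the mesodermal factors, 2 were called higher and 1 lower. Osr1, a factor of intermediate and lateral mesoderm, was at 3.14, 2.45 and 1.35 CPM in the ciNSLCs and had 3 reads in the controls together, a ratio of 62.2 (95% counting interval 21 to 304, adjusted p = 0.000494). Snai2 (Slug), a repressor active in mesenchyme and neural crest, was at 0.557, 0.846 and 0.643 CPM against 0.0568 and 0.119 CPM (log2 change 2.86, SE 0.44, adjusted p = 0.0054). Both were called whichever library was left out, and both were well under their D0 means of 45.6 and 102 CPM. Tbx15, a T-box factor of limb and skin mesenchyme, was called lower, at 0.256, 0.534 and 0.271 CPM against 3.41 and 1.05 CPM (adjusted p = 0.0468), but this call held in only 4 of the 16 fits that left out a library (adjusted p up to 0.278 without SCR029). These 3 were the called members among 27 mesodermal factors tested (7.4% higher and 3.7% lower, against 0.879% and 0.652% of all genes).

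Signalling lists held few called members. Of 12 Wnt targets tested 1 was called higher (8.3% against 0.879% of all genes), Tcf7, a nuclear effector of Wnt signalling, at 27.3, 32.6 and 22.1 CPM in the ciNSLCs against 8.32 and 10.4 CPM in SCR029 and priNPC (log2 change 1.55, SE 0.31, adjusted p = 0.0253). In the TGF-beta list 2 of 14 were called higher (14.3%): the co-receptor Tgfbr3, at 8.6, 9.03 and 18.7 CPM against 2.41 and 3.15 CPM (adjusted p = 0.00959), and Ltbp1, which holds latent TGF-beta in the matrix, at 109, 134 and 56.8 CPM against 8.24 and 26.4 CPM (adjusted p = 0.0285). In the EGF receptor family 1 of 12 (8.3%), the ligand Hbegf, was called higher, at 47.9, 34.7 and 31.7 CPM against 7.78 and 8.9 CPM (adjusted p = 0.0334), and in the Notch list 1 of 16, the feedback regulator Nrarp, was called lower (6.2% against 0.652% of all genes), at 4.79, 4.98 and 2.57 CPM against 17.7 and 17.3 CPM (adjusted p = 0.0255). The groups did not overlap for any of the 5. Each call was lost without SCR029 (adjusted p up to 0.132), those of Hbegf and Nrarp also without priNPC, and those of all but Tgfbr3 without ciNSLC replicate 1 or 2. The call of Nrarp was lost without ciNSLC replicate 3 as well, and that of Hbegf without replicate 2 of D4 or of D12. Of 18 BMP, 14 retinoic acid and 18 FGF and ERK response genes 0 were called by edgeR, with 3, 4 and 0 at an unadjusted p under 0.05 (13.7% of all genes). DESeq2 called 1, 2 and 0 of them and limma voom 0. Of 18 ventral neural tube and Hedgehog genes and 13 DNA methylation and germline genes 0 were called by edgeR and by limma voom, 2 and 1 by DESeq2, and 3 and 2 had an unadjusted p under 0.05.

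**Figure D5:**
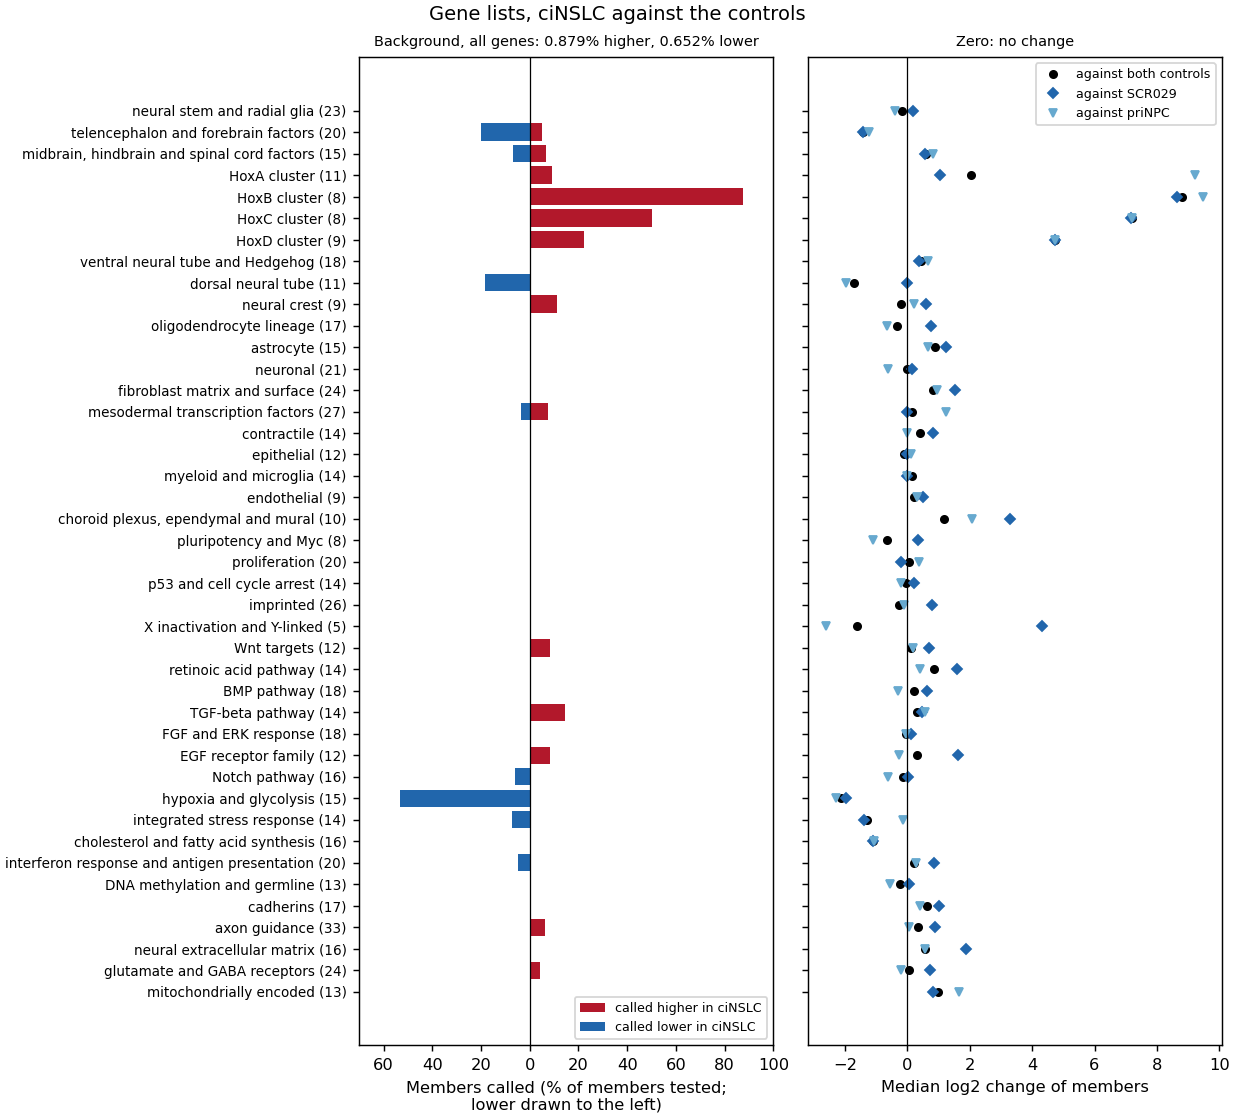
For each of 42 gene lists (members tested in parentheses), the share of members called higher (right, red) and lower (left, blue) in the ciNSLCs against both controls, and the median log2 change against both controls, SCR029 and priNPC. The HoxB list reaches 87.5% called higher and the hypoxia and glycolysis list 53.3% called lower, against 0.879% and 0.652% of all genes.

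Several other lists had 1 or 2 called members, against 0.879% of all genes called higher and 0.652% lower. Of 24 glutamate and GABA receptor genes 1 was higher (4.2%), and of 20 interferon response and antigen presentation genes 1 was lower (5%). Of 33 axon guidance genes 2 were higher (6.1%). Of 15 midbrain, hindbrain and spinal cord factors 1 was higher and 1 lower (6.7% each). Gria3, a subunit of AMPA glutamate receptors, was at 324, 458 and 346 CPM in the ciNSLCs against 110 and 105 CPM in SCR029 and priNPC (log2 change 1.81, SE 0.34, adjusted p = 0.019), and Stat2, a mediator of interferon signals, was lower at 4.09, 4.23 and 4.74 CPM against 15.2 and 20.4 CPM (log2 change -2.03, SE 0.43, adjusted p = 0.0314). The groups were separate for both. The call of Gria3 was lost without ciNSLC replicate 2 or either control (adjusted p up to 0.0709), and that of Stat2 without any 1 ciNSLC library, priNPC, D4 replicate 3 or D12 replicate 2 (up to 0.109). The guidance genes Sema5a and Unc5c, called higher (adjusted p = 0.0488 and 0.0495), kept their call in 4 and 2 of the 16 fits that left out a library (up to 0.16 and 0.183 without SCR029). Irx5, a homeobox factor, was called higher at 10.1, 17.3 and 8.23 CPM against 3.92 and 1.26 CPM (adjusted p = 0.0404), and Lmx1b, a LIM factor of midbrain and hindbrain, lower, with 1 read in the ciNSLCs together against 4.49 CPM in SCR029 and 0.0477 CPM in priNPC (adjusted p = 0.0406). Each of these calls held in 4 of the 16 fits (up to 0.148 without ciNSLC replicate 2 for Irx5 and 0.694 without SCR029 for Lmx1b). Of the 42 lists, 24 had no called member, while 1.53% of all genes were called in either direction.

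Stress and lipid synthesis lists had negative medians with 1 call between them. Chac1, an enzyme that breaks down glutathione and a target of the integrated stress response, was called lower, at 0.372, 0.356 and 0.576 CPM against 8.18 and 2.43 CPM (log2 change -3.6, SE 0.51, adjusted p = 0.00326), and stayed so whichever library was left out. It was the 1 called member of 14 (7.1% against 0.652% of all genes). Another 7 had an unadjusted p under 0.05, all lower (against 13.7% of all genes), and the median of the list was -1.29 (-1.39 against SCR029 and -0.14 against priNPC). Its summed level was 581, 651 and 916 CPM in the ciNSLCs, 1770 CPM in SCR029 and 744 CPM in priNPC, so that only SCR029 lay above all ciNSLC libraries. Of 16 genes of cholesterol and fatty acid synthesis 0 were called by edgeR and by limma voom and 1 by DESeq2. Their summed level was 4330, 3720 and 3610 CPM in the ciNSLCs, 7800 CPM in SCR029 and 6790 CPM in priNPC. Of these 16, 6 had an unadjusted p under 0.05, all lower (against 13.7% of all genes). A negative log2 change was found for 15, and the median was -1.12. All ciNSLC libraries lay below both controls for 12 of the 16 and above both for 1. Over all genes 27.2% had separate groups in either direction. Scd2, a desaturase and the most abundant of them, was at 2440, 1920 and 1600 CPM against 3760 and 2970 CPM.

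The remaining genes with the largest changes did not share a list. Ccrl1 (Ackr4), an atypical chemokine receptor, was at 49.7, 33 and 45.9 CPM in the ciNSLCs and at 0.114 and 0.0716 CPM in the controls (log2 change 8.82, SE 0.96, adjusted p = 0.00042); a second table entry of the same symbol overlaps it. Gstt3, a glutathione transferase, was at 30.5, 41.5 and 46 CPM against 0.0852 and 0.453 CPM (log2 change 7.14, SE 0.57, adjusted p = 4.2e-05), and Mme, the surface peptidase neprilysin, at 113, 134 and 137 CPM against 4.63 and 0.119 CPM (log2 change 5.76, SE 1.06, adjusted p = 0.0171). These 3 were high in all ciNSLC libraries, and with Cybrd1, a ferric reductase, and the transporter Slc43a3 they were called whichever library was left out. Glycam1, a mucin-like protein, had the largest log2 change among called genes with a mean of at least 10 CPM and was at 54, 39 and 0.643 CPM with 1 read in the controls together (ratio 2610, 469 to 103000). Its call (adjusted p = 0.0269) was lost without ciNSLC replicate 1 or 2 or without either control (up to 0.107). Osmr, the oncostatin M receptor, at 30.3, 31.6 and 3.86 CPM against 0.312 and 0.859 CPM, was likewise lowest in replicate 3 (adjusted p = 0.00855, and 0.0551 without SCR029). The other named rises, Casp12, a caspase of the endoplasmic reticulum, Adra2a, an adrenergic receptor, Chl1, a neural adhesion molecule, and Abca1, a lipid transporter, had log2 changes of 5.41, 5.27, 4.24 and 4.17 (adjusted p = 0.00889, 0.0305, 0.0309 and 0.0314). All 4 were lowest in replicate 3 among the ciNSLCs, and all 4 lost their call without SCR029 (up to 0.14). Adra2a and Chl1 also lost it without ciNSLC replicate 1 or 2, priNPC or D4 replicate 3, and Abca1 without ciNSLC replicate 1 or 2, D4 replicate 3, D8 replicate 2 or D12 replicate 2 or 3.

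Among the falls, Angpt2, a ligand of the endothelial receptor Tie2, was at 1.67, 2.36 and 2.06 CPM in the ciNSLCs and at 44.9 and 99.1 CPM in SCR029 and priNPC (log2 change -5.15, SE 0.48, adjusted p = 9.58e-05). Igf2bp3, an RNA-binding protein of embryonic tissue, was at 2.07, 2.67 and 3.08 CPM against 10.9 and 43.9 CPM (log2 change -3.4, SE 0.46, adjusted p = 0.0024). Both were called whichever library was left out. Fgf23, a hormone of phosphate balance, and Sdpr (Cavin2), a protein of caveolae, rested on 1 control. Fgf23 had 3 reads in the ciNSLCs together, 23.6 CPM in SCR029 and 0.835 CPM in priNPC, and Sdpr was at 5.03 to 5.25 CPM in the ciNSLCs, at 143 CPM in SCR029 and at 9.18 CPM in priNPC. Pcp4l1 was at 25.2, 20.8 and 5.86 CPM against 299 and 115 CPM (adjusted p = 0.0253, and 0.0993 without SCR029). Without SCR029 the adjusted p of Fgf23 and Sdpr rose from 0.0255 and 0.0287 to 0.201 and 0.554, and all 3 calls were also lost without any 1 of the ciNSLC libraries.

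Against each control on its own, with the lone library assumed to vary like the other groups, the direction of calls differed. Against SCR029 375 genes were called higher in the ciNSLCs (2.13%) and 101 lower (0.573%), and against priNPC 125 higher (0.709%) and 226 lower (1.28%). Both comparisons use the same ciNSLC libraries. HoxB was alike in both, with 7 of 8 called higher against each control, and the hypoxia and glycolysis list had 6 of 15 called lower against each. Of the telencephalon and forebrain list 2 of 20 were called lower against SCR029 and 4 against priNPC. The neural stem and radial glia list had 1 member called higher and 0 lower against SCR029, and 0 higher and 2 lower against priNPC. Leaving out ciNSLC replicate 1, 2 or 3 gave 327, 314 and 621 calls against SCR029, and 167, 170 and 325 against priNPC.

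Most of the genes called were already detectable in the fibroblasts. A mean of at least 1 CPM at D0 was found for 135 of the 155 genes called higher (87.1%) and for 96 of the 115 called lower (83.5%), against 71% of all genes tested. Otx2 and Glycam1, with no read at D0, were among the exceptions in the lower and the higher group.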

How the data were processed

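RNA from 16 mouse libraries was sequenced paired-end after amplification with the Ovation RNA-Seq V2 kit, per the labels. Per the submitters' processing notes, TopHat2 2.0.13, the mm9 genome, featureCounts from Subread and edgeR were used. The deposited table gives raw counts for 37991 genes per the file headers, and all values here come from these counts; 48 other per-sample columns were not used. The deposited feature length, another unit in bases, served only for levels per kilobase. Of the genes, 415 have no symbol (at most 0.151% of counts of a library) and 9800 have no count.

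All 16 libraries were fitted with edgeR 4.0.16 in R 4.3.3 (default expression filter on groups, TMM scaling, robust quasi-likelihood F-test, group as the only term), with SCR029 and priNPC as one control group and, for each control on its own, as separate groups. The common biological coefficient of variation was 0.441. P-values were adjusted by Benjamini-Hochberg over all genes tested. In simulated data with these groups, the fit recovered 34 of 100 genes changed by 2 and 100 of 100 changed by 4 on the log2 scale, with 3 false calls among 137. The simulation gave every gene the common dispersion and held no difference between batches or between SCR029 and priNPC. Only genes above a minimum level were changed. Its recovery and false calls therefore cannot be carried over to the real comparison. Within-batch values used a pseudocount of 0.1 CPM. Counting intervals (95%) and floors of 3 counts leave out other error: the reads carry no molecular identifier, so amplified copies count more than once.

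The members and the 42 gene lists (706 distinct members, 704 found; Sox1 and Kcnq1ot1 were not matched) were chosen with earlier results of these data known. Genes are named by this rule: the 12 largest rises and 12 largest falls among called genes with separate libraries and a higher group mean of at least 10 CPM, up to 4 called members of a list in each direction, Hox genes that passed the filter, a panel of marker genes, and up to 2 abundant members of a list without calls. Alternatives were DESeq2 size factors, upper-quartile scaling, removal of the mitochondrial rRNA genes, 2 other expression filters, DESeq2 1.42.0, limma voom (limma 3.58.1), a batch term, a replicate block, other codings of the controls, only the 5 libraries compared, a log2 threshold of 1, and each library left out. Strand-specific counting is not given in the sources used here. Promoters come from RefSeq (GRCm38.p6); no coordinates were converted between builds. Some items are not reported here.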

Additional observations from a re-analysis of the deposited data

How the results depend on the processing

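No log2 change of the 65 genes for which a test is given changed sign under the 13 alternative fits or with any of the 16 libraries left out (1882 values, of which 299 lost and 25 gained a call). Of the 60 called genes, 26 were called whichever library was left out. The count of 270 genes became 995 with the DESeq2 Wald test, 648 with batch as a term, 621 against the mean of the controls as 2 groups, 463 with SCR029 as the only control and 23 with only the 5 libraries compared, of which 21 were among the 270. It ran from 109 to 463 when a library was left out. Under scaling, filter, limma voom and replicate block alternatives it was 224 to 396. Against SCR029 the 476 calls became 1241 with DESeq2, 206 with limma voom and 769 with batch as a term, and 314 to 621 without a ciNSLC library. Against priNPC the 351 calls became 1043 with DESeq2, 795 with batch as a term and 200 with only the 5 libraries, and 167 to 325 without a ciNSLC library. The cause was not tested. The fit to only 5 libraries has fewer samples and tests 14640 genes.

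Replicate numbers were not taken to pair the samples, since not every correlation was above 0.1: deviations of same-numbered libraries of different groups correlated between -0.02 and 0.73 over 36 pairs, and those of different number between -0.65 and 0.67 over 70. Libraries deviated together by batch: the range was -0.17 to 0.73 within a batch and -0.65 to 0.17 across batches. With the replicate block 396 genes were called against both controls, 595 against SCR029 and 463 against priNPC, and 57 of the 60 called genes named in the text stayed called.

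Depth limits what can be said of genes under 0.0697 to 0.133 CPM in a library. With 1 library per control source, differences between SCR029 and priNPC have no replicate check.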
